A study of Mus musculus with 5 samples.

Results

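The 10 genes described here encode the surface and vesicle proteins by which endothelial cells, the lining of blood vessels, hold leukocytes and let plasma and cells cross the vessel wall. They are Sele, Selp, Icam1, Vcam1, Icam2, Pecam1, Plvap, Cav1, Cavin2 and Vwf. They were matched by mouse symbol to the Ensembl identifiers of the deposited count tables, and all 10 were found among 55573 genes. RNA came from the right hemisphere of C57BL/6 female mice that were 7 to 8 weeks old when GL261 glioma cells carrying a luciferase/mKate2 vector were injected into the right caudate nucleus-putamen. GL261 is a mouse glioma line that grows in animals of this strain, and every mouse in both groups carried the tumor. Libraries of 3 vehicle mice, given inVivoPure pH 6.5 Dilution Buffer, were compared with those of 2 UMBO mice. UMBO is ultrasound-mediated blood-brain barrier opening, in which pulsed ultrasound drives circulating microbubbles against the vessel wall. Sessions took place on days 21 and 24 and tissue was taken 24 h after the last one. The sources used here do not say whether vehicle mice received microbubbles, nor whether the vessels were rinsed of blood. The study describes 3 mice per group, and a further UMBO library was not analysed here.

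Resting brain endothelium is tightly sealed, carries few leukocyte adhesion molecules and has few caveolae, the flask-shaped membrane pits that move plasma proteins across the cell. When cytokines such as TNF or IL-1 reach endothelial cells, NF-kB signaling turns on transcription of selectins, which slow passing leukocytes, and of ICAM-1 and VCAM-1, which arrest them by binding integrins. PECAM-1 and ICAM-2 lie at cell junctions and surfaces without such induction, VWF is stored with P-selectin in granules called Weibel-Palade bodies, and PLVAP, caveolin-1 and cavin-2 belong to the vesicles of leaky or transporting endothelium.

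Libraries held from 59736771 to 86164159 counted reads. Levels are given as CPM, the read count of a gene scaled to equal library size with edgeR's TMM method, and differences as log2 fold changes of UMBO over vehicle with their standard error (SE) from edgeR's quasi-likelihood test. UMBO replicate 2 stood apart from the other libraries, with a chi-square per gene of 460.6 against UMBO replicate 1 and 301.3 to 727.1 against the vehicle libraries, where the other pairs lay between 58.12 and 129.5. It held the highest level of 8 of the 10 genes, so the fold changes of the 10 genes and the medians of the gene lists are also given without it. Vehicle replicate 1 held the lowest level among the vehicle libraries for 9 of the 10.

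None of the 10 genes passed an adjusted p under 0.05. Of the 23592 genes tested by edgeR, 0% passed, with a smallest adjusted p of 0.497. Sele was too rare to be tested. Of the other 9 genes, 8 were higher with UMBO and 1, Cavin2, was lower, where 50.9% of all tested genes were higher. Their median log2 fold change was 0.85, beside 0.01 over all genes tested. With counts scaled by the total per library alone, these medians were 0.97 and 0.13. At an unadjusted p under 0.05, 4 of the 9 were higher, namely Cav1, Selp, Vwf and Pecam1, a share of 44.4% beside 5.3% of all genes. None was lower at that p, beside 2.06% of all genes. In 5 of the 10 genes, these 4 and Sele, each UMBO mouse had a higher level than any vehicle mouse. Among the 9 tested genes this was 44.4%, beside 11.5% of all genes, and no member had both UMBO libraries below, beside 11.4%. These 5 were both selectins, the storage granule gene Vwf, the junctional gene Pecam1 and the caveola gene Cav1, while Vcam1, Plvap, Cavin2, Icam1 and Icam2 overlapped between the groups. DESeq2 called none of the 10 at an adjusted p under 0.05, and 0.176% of the 22759 genes to which it gave an adjusted p. At an unadjusted p under 0.05 it passed 6 of the 10, the 4 above with Icam1 and Sele, all higher. Beside them, 4.87% of the 40434 genes with a DESeq2 p were higher at that p. This set is wider than the 23592 genes behind the edgeR share.

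The result depended on which UMBO mouse was counted. Without UMBO replicate 2 the median log2 fold change was 0.33 and Cav1 was the 1 gene left at an unadjusted p under 0.05, beside 1.15% of all genes higher at that p. Without UMBO replicate 1, where the remaining UMBO mouse was assumed to vary like the vehicle mice, Sele, Selp, Icam1, Pecam1 and Vwf were higher at an adjusted p under 0.05, and that fit called 10.1% of all genes higher. In this 1 mouse 9 of the 10 genes lay above every vehicle mouse and Cavin2 below, where 42.2% of all genes lay above and 41.6% below. Without vehicle replicate 1, the genes at an unadjusted p under 0.05 were Selp and Cav1, beside 0.838% of all genes higher at that p. In RNA from a whole hemisphere, more endothelial cells, more RNA per endothelial cell and RNA of these genes from other cell types cannot be told apart.

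**Figure D1:**
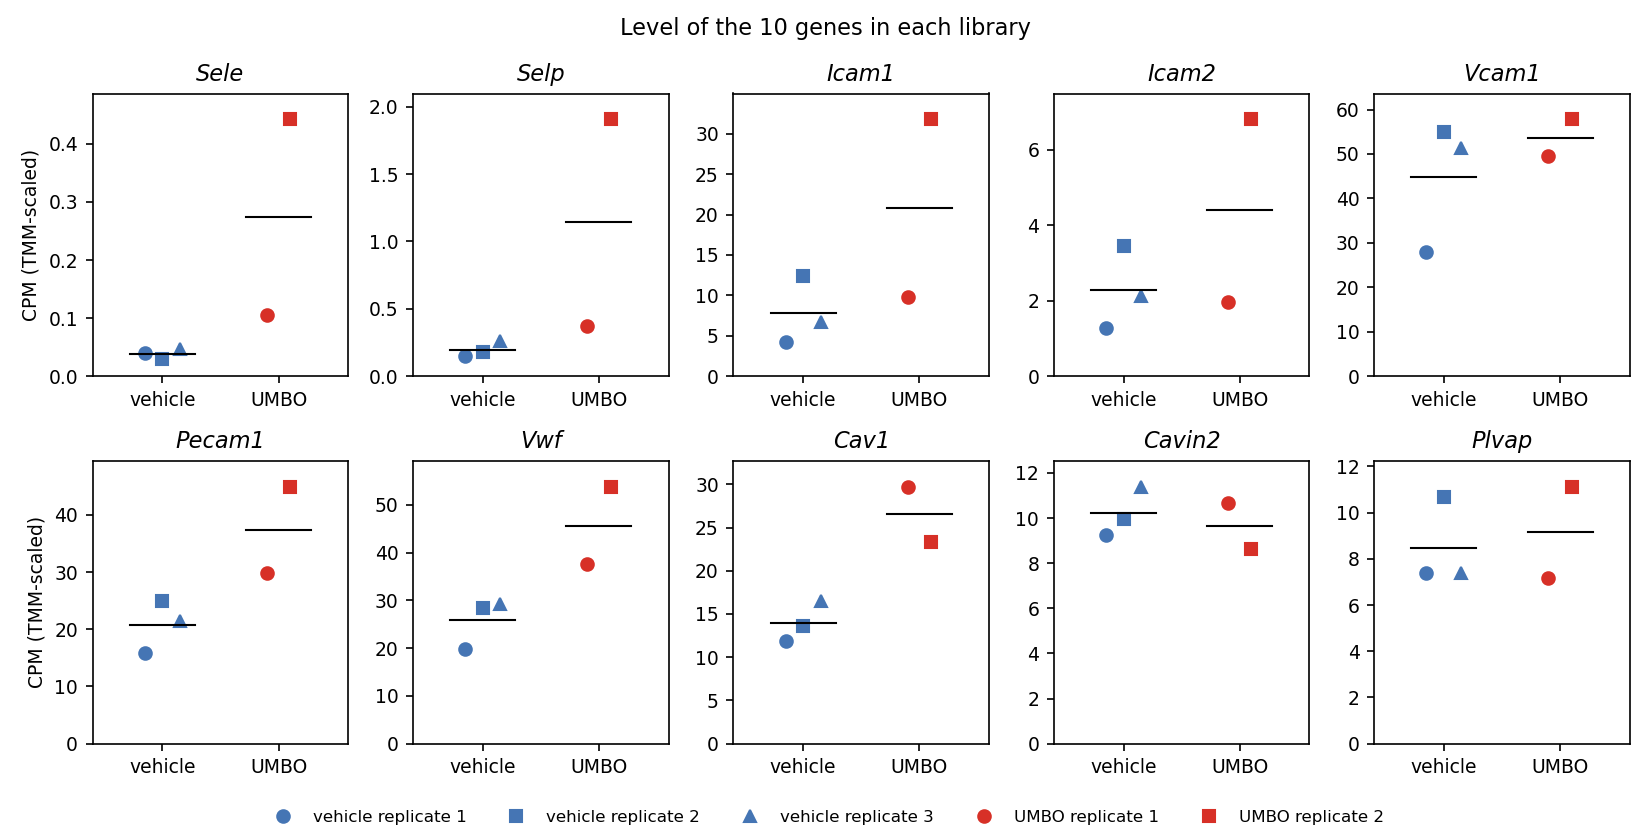
Level of each of the 10 genes in CPM (vertical axis, TMM-scaled, each panel from 0) in the 3 vehicle and 2 UMBO libraries, with 1 symbol per mouse and a line at the group mean. UMBO replicate 2 (red square) is the highest point of 8 panels, whereas Cav1 is highest in UMBO replicate 1 and Cavin2 in vehicle replicate 3.

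E-selectin and P-selectin catch leukocytes from the flow and let them roll along the vessel wall. E-selectin is made on demand, and P-selectin is also held in granules and moved to the surface within minutes. Their genes are neighbors on chromosome 1 of GRCm38. Sele (ENSMUSG00000026582) lies at 164048234 to 164057677 and Selp (ENSMUSG00000026580) at 164115264 to 164150026, both on the forward strand. The bases before the start sites are shown because both genes are targets of inflammatory signaling and differed most from vehicle. Windows of 250 bases upstream of the start site were read from RefSeq, assembly GRCm38.p6, in which 5 of the 10 genes were matched, namely Sele, Selp, Icam1, Cav1 and Cavin2. Capitals mark matches on either strand to 5 motifs. The NF-kB-like motif was searched as GGNNNTTCC and the motif of STAT factors, which act below interferon and IL-6 receptors, as TTCNNNGAA. Factors of the ETS family, common in endothelial promoters, were searched as AGGAAG. The motif of AP-1, which is activated by stress and cytokine signaling, was searched as TGANTCA. The TATA box, at which the transcription machinery can assemble, was searched by its core letters, TATAAA.
Sele, chr1:164047984-164048233, forward strand: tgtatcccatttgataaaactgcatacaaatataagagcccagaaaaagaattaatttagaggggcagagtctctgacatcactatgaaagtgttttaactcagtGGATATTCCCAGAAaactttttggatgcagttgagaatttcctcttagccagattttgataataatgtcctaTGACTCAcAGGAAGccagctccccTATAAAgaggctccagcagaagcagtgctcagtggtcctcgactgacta
Selp, chr1:164115014-164115263, forward strand: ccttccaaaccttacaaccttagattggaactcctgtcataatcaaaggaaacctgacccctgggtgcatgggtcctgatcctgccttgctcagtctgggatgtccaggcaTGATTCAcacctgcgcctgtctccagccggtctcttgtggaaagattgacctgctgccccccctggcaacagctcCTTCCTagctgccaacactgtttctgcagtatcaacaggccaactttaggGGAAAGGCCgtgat
Positions are those of the first base of a match, with -1 the base just before the start site. The Sele window held an NF-kB-like match at -145, which overlaps a STAT match at -140, and AP-1, ETS and TATA box matches at -73, -65 and -49. The Selp window held an AP-1 match at -139 and, on the reverse strand, an ETS match at -64 and an NF-kB-like match at -14. Of 32851 RefSeq windows of this length, 15.7% held the NF-kB-like motif, 29.5% ETS, 7.02% STAT, 6.75% AP-1 and 12.4% the TATA box. A stricter NF-kB form, GGG and TTTCC with any 2 bases between them, was present in 1.41% of windows and in none of the windows printed here. The looser form was searched after the strict one gave no match.

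Sele was the rarest of the 10 genes, with 3, 2 and 4 reads in vehicle replicates 1 to 3 and 9 and 29 reads in UMBO replicates 1 and 2. Its levels were 0.0401, 0.0297 and 0.0472 CPM in vehicle mice and 0.105 and 0.443 CPM in UMBO mice. Both UMBO mice lay above every vehicle mouse, at a depth where a handful of reads decides each vehicle value. Pooled over libraries, the share of reads was 6.84-fold higher with UMBO, from 9 against 38 reads, with an exact 95% interval of 3.25 to 16.1 that covers counting error only and not the spread between mice. This ratio was 2.75 without UMBO replicate 2, from 9 reads in each group, with an interval of 0.969 to 7.83. When genes with low counts were kept in the fit, edgeR gave a log2 fold change of 2.69 (SE 0.756) with an adjusted p of 0.354.

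Selp stood at 0.147, 0.178 and 0.26 CPM in vehicle mice and at 0.374 and 1.91 CPM in UMBO mice. The groups did not overlap, although UMBO replicate 2 was 5.1-fold above UMBO replicate 1. The means were 0.195 ± 0.0582 CPM (SD, n = 3) and 1.14 ± 1.08 CPM (SD, n = 2). The log2 fold change was 2.53 (SE 0.723, 95% interval 0.76 to 4.30) with an adjusted p of 0.497, and it was 0.93 without UMBO replicate 2. Its exons overlap those of Gm16548 and Gm16587, which are annotated on the opposite strand. Gm16548 took 5 to 21 reads per library, up to 95.5% of the Selp count, and Gm16587 took 0 to 4. Whether the counting used strand is not given in the sources used here, so reads of Selp and of these genes cannot be told apart. Sele and Selp kept a similar proportion to each other, with 0.273, 0.167 and 0.182 Sele reads per Selp read in vehicle mice and 0.281 and 0.232 in UMBO mice, ranges that overlap.

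ICAM-1 and VCAM-1 are inducible immunoglobulin-family molecules that stop rolling leukocytes by binding LFA-1 and Mac-1, and VLA-4, respectively. Icam1 (ENSMUSG00000037405) lies on chromosome 9 at 21015985 to 21028817, forward strand, and Vcam1 (ENSMUSG00000027962) on chromosome 3 at 116109949 to 116129688, reverse strand. The Icam1 window is shown for comparison with the selectins.
Icam1, chr9:21015690-21015939, forward strand: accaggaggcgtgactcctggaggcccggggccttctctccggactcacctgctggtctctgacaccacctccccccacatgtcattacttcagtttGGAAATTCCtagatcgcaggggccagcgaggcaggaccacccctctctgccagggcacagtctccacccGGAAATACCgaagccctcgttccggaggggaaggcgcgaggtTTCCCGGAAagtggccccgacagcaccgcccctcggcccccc
It held an NF-kB-like match at -153 that fits the motif on both strands, another on the reverse strand at -84, and a STAT match at -42. Icam1 stood at 4.20, 12.4 and 6.71 CPM in vehicle mice and at 9.78 and 31.8 CPM in UMBO mice. UMBO replicate 1 lay within the vehicle range and UMBO replicate 2 above it. The means were 7.76 ± 4.19 CPM (SD, n = 3) and 20.8 ± 15.6 CPM (SD, n = 2), and the log2 fold change of 1.42 (SE 0.617, 95% interval -0.09 to 2.93) had an adjusted p of 0.497. Without UMBO replicate 2 it was 0.33. Gm47079, on the opposite strand with overlapping exons, took 65 to 155 reads per library, up to 49.4% of the Icam1 count in vehicle replicate 1. Vcam1 stood at 28, 55.0 and 51.4 CPM in vehicle mice and at 49.6 and 57.8 CPM in UMBO mice. Vehicle replicate 1 was the low value and the other 4 libraries lay close together. The log2 fold change of Vcam1 was 0.26 (SE 0.311, 95% interval -0.50 to 1.02, adjusted p = 0.654), 0.15 without UMBO replicate 2 and 0.01 without vehicle replicate 1.

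ICAM-2 and PECAM-1 are constitutive surface molecules, ICAM-2 a second integrin ligand and PECAM-1 (CD31) a junctional molecule through which leukocytes pass, which is also present on platelets and leukocytes. Both genes lie on the reverse strand of chromosome 11, Icam2 (ENSMUSG00000001029) at 106377656 to 106388075 and Pecam1 (ENSMUSG00000020717) at 106654217 to 106750628. Icam2 stood at 1.27, 3.46 and 2.13 CPM in vehicle mice and at 1.98 and 6.81 CPM in UMBO mice, so UMBO replicate 1 lay inside the vehicle range. Its log2 fold change was 0.94 (SE 0.635, adjusted p = 0.503), and it turned to -0.21 without UMBO replicate 2. Pecam1 stood at 15.8, 24.9 and 21.5 CPM in vehicle mice and at 29.9 and 44.9 CPM in UMBO mice. Here both UMBO mice exceeded every vehicle mouse. The means were 20.7 ± 4.57 CPM (SD, n = 3) and 37.4 ± 10.6 CPM (SD, n = 2). The log2 fold change of Pecam1 was 0.85 (SE 0.272, 95% interval 0.19 to 1.52, adjusted p = 0.497), and 0.53 without UMBO replicate 2.

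VWF, the multimeric protein that tethers platelets, is made by endothelial cells and megakaryocytes. Vwf (ENSMUSG00000001930) lies on chromosome 6 at 125546774 to 125686679, forward strand. It stood at 19.9, 28.5 and 29.2 CPM in vehicle mice and at 37.5 and 53.8 CPM in UMBO mice. The groups did not overlap, and vehicle replicate 1 was the lowest library. The means were 25.9 ± 5.18 CPM (SD, n = 3) and 45.7 ± 11.5 CPM (SD, n = 2), a log2 fold change of 0.82 (SE 0.253, 95% interval 0.20 to 1.44, adjusted p = 0.497). Without UMBO replicate 2 it was 0.54.

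Caveolin-1 forms the caveola membrane and cavin-2 is part of its cytoplasmic coat, which shapes the pit. Cav1 (ENSMUSG00000007655) lies on chromosome 6 at 17306335 to 17341452 and Cavin2 (ENSMUSG00000045954) on chromosome 1 at 51289126 to 51302960, both on the forward strand. Their windows are printed because the 2 genes serve 1 structure and differed in their values.
Cav1, chr6:17306085-17306334, forward strand: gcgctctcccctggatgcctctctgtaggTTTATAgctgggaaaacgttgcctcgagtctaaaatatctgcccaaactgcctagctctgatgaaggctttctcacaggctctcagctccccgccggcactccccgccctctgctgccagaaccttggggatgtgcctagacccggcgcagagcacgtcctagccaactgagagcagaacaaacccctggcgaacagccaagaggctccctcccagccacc
Cavin2, chr1:51288876-51289125, forward strand: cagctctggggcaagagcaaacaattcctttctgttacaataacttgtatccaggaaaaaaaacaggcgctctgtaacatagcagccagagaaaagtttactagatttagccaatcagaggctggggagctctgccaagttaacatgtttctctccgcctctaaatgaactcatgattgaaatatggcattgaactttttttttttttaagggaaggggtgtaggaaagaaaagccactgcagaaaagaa
The Cav1 window held a TATA box match on the reverse strand at -221 and the Cavin2 window held none of the motifs. RefSeq gives Cav1 another start site, whose window also held none. Cav1 stood at 11.9, 13.6 and 16.5 CPM in vehicle mice and at 29.7 and 23.4 CPM in UMBO mice. Both UMBO mice lay above the vehicle range, and here UMBO replicate 1 was the higher of the pair. The means were 14.0 ± 2.36 CPM (SD, n = 3) and 26.5 ± 4.49 CPM (SD, n = 2). The log2 fold change of Cav1 was 0.92 (SE 0.221, 95% interval 0.38 to 1.46) with an adjusted p of 0.497, and 1.09 without UMBO replicate 2, so its difference did not rest on that library. Cavin2 stood at 9.25, 9.98 and 11.4 CPM in vehicle mice and at 10.7 and 8.62 CPM in UMBO mice. These ranges overlapped, with a log2 fold change of -0.08 (SE 0.223, 95% interval -0.63 to 0.46, adjusted p = 0.853). Its sign turned when counts were scaled by library size only, to 0.02, and without UMBO replicate 2, to 0.07.

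PLVAP builds the diaphragms of caveolae and fenestrae, is absent from sealed brain capillaries and marks leaky vessels such as those of tumors. Plvap (ENSMUSG00000034845) lies on chromosome 8 at 71497765 to 71511752, reverse strand. It stood at 7.38, 10.7 and 7.39 CPM in vehicle mice and at 7.16 and 11.1 CPM in UMBO mice. UMBO replicate 1 was the lowest of all 5 libraries and UMBO replicate 2 the highest. The log2 fold change was 0.11 (SE 0.307, 95% interval -0.64 to 0.86, adjusted p = 0.86), and -0.24 without UMBO replicate 2.

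**Figure D2:**
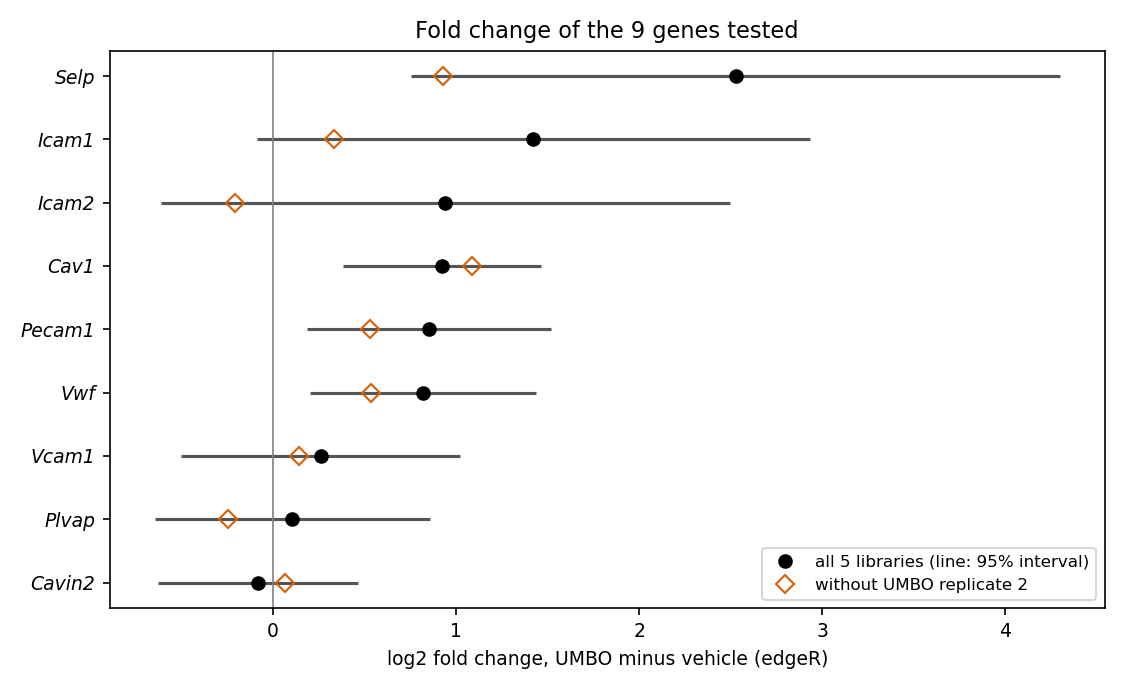
Log2 fold change of UMBO over vehicle (horizontal axis) for the 9 tested genes from edgeR's quasi-likelihood test on all 5 libraries, with 95% intervals, and the value without UMBO replicate 2. The interval of Cav1, 0.38 to 1.46, lies above 0 and its point moves up to 1.09 without that library, while the point of Selp moves from 2.53 to 0.93.

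Divided by exon length, the levels in vehicle mice ran from 5.05 ± 1.65 CPM per kb for Vcam1 (SD, n = 3), through Plvap (4.27 ± 0.961), Cav1 (4.07 ± 0.686), Cavin2 (3.34 ± 0.357), Pecam1 (3.33 ± 0.733), Icam1 (1.78 ± 0.96), Vwf (1.61 ± 0.323) and Icam2 (1.20 ± 0.578), to Selp (0.0442 ± 0.0132) and Sele (0.0134 ± 0.00304). Neighbors in this order overlapped in their vehicle values from Vcam1 down to Icam2, and the steps from Icam2 to Selp and from Selp to Sele did not. The selectins were therefore the only members far below the rest on the length-scaled level. In UMBO mice the highest mean length-scaled level was that of Cav1, 7.71 ± 1.31 CPM per kb (SD, n = 2), followed by Vcam1 at 6.05 ± 0.657 and Pecam1 at 6.01 ± 1.71. The selectins were still lowest, at 0.259 ± 0.246 for Selp and 0.0941 ± 0.0819 for Sele.

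Genes that mark endothelial cells in general were also higher with UMBO. Of 20 endothelial identity genes, which include the tight junction gene Cldn5 and the VE-cadherin gene Cdh5, 19 were higher, 8 of them at an unadjusted p under 0.05, and none passed the adjusted threshold. Their median log2 fold change was 0.61, and 0.48 without UMBO replicate 2. Their summed level was 248 to 350 CPM in vehicle mice and 431 to 439 CPM in UMBO mice. Both UMBO mice lay above every vehicle mouse for 13 of the 20, beside 11.5% of all genes. Cldn5 stood at 15.8, 29.4 and 19.6 CPM in vehicle mice and at 38.9 and 57.1 CPM in UMBO mice. Its log2 fold change of 1.15 was the largest of the 20. Flt1 (0.12), Tek (0.13) and Ptprb (-0.002) were among those near 0, with groups that overlapped. Each of the 10 genes was therefore also set against the 20 identity genes, by subtracting their mean log2 CPM from its own log2 CPM in the same library.

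On this relative scale Sele, Selp, Cav1 and Vwf were higher in each UMBO mouse than in any vehicle mouse, by mean differences of 1.38, 1.47, 0.37 and 0.26 log2 units. Of all genes tested, 1.22% lay above in this way and 51.7% below. Without UMBO replicate 2 the differences were 0.50, 0.37, 0.58 and 0.04. For Vwf the nearest values were 1.22 in vehicle replicate 3 and 1.224 in UMBO replicate 1, and for Cav1 they were 0.40 in vehicle replicate 3 and 0.46 in UMBO replicate 2. Cavin2 had both UMBO libraries below every vehicle library, by -0.64, with 0.03, -0.31 and -0.14 in vehicle mice and -0.59 and -0.97 in UMBO mice, as was the case for that large share of all genes. Its difference was -0.45 without UMBO replicate 2. The remaining genes overlapped between the groups, with differences of 0.76 for Icam1, 0.29 for Pecam1, 0.24 for Icam2, -0.24 for Vcam1 and -0.46 for Plvap. With that library left out, these were -0.05, 0.03, -0.61, -0.31 and -0.74 in the same order. Pecam1, which did not overlap in CPM, thus overlapped once set against the identity genes.

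**Figure D3:**
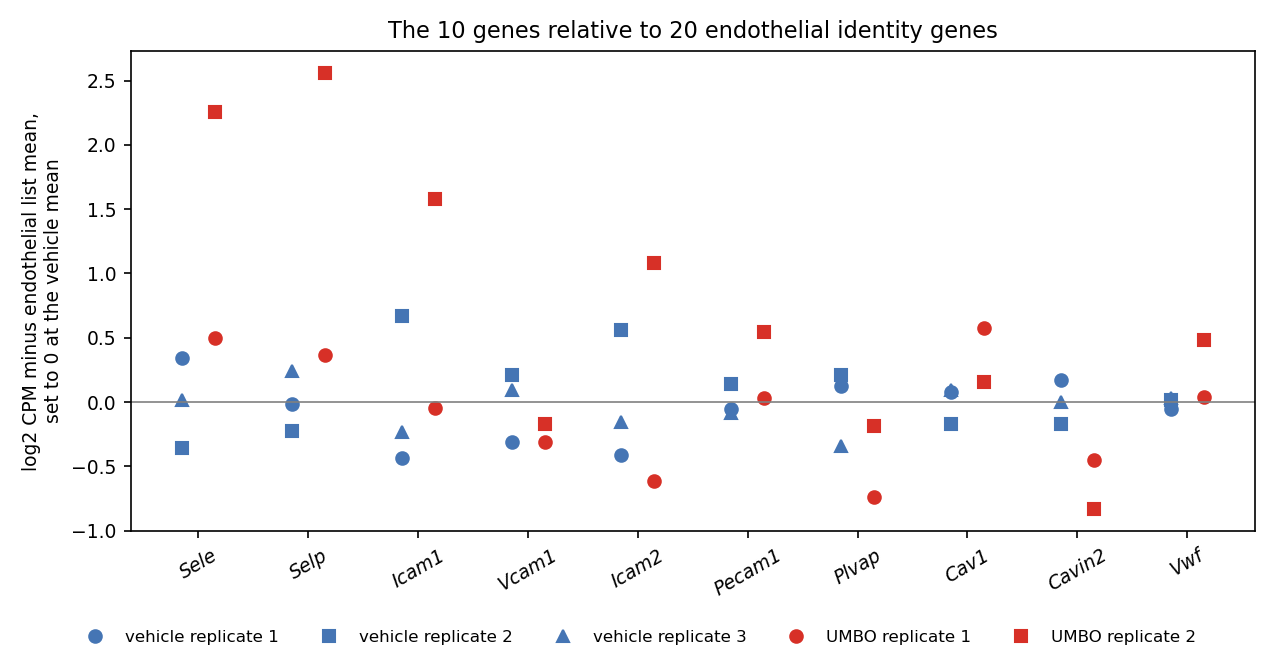
Log2 CPM of each gene minus the mean log2 CPM of 20 endothelial identity genes in the same library (vertical axis, log2 units, shifted so that the vehicle mean of each gene is 0), with 1 symbol per mouse. Cavin2 lies lower in both UMBO libraries than in any vehicle library, Sele, Selp, Cav1 and Vwf lie higher, and the other 5 genes overlap.

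Ratios of read counts between 2 genes of the same library do not depend on the scaling between libraries. The 4 pairs given here were chosen after their values were seen. Cav1 had 1.28, 1.36 and 1.45 reads per Cavin2 read in vehicle mice and 2.78 and 2.71 in UMBO mice, so the UMBO mice were almost alike and above all vehicle mice. Icam1 had 3.31, 3.58 and 3.16 reads per Icam2 read in vehicle mice and 4.95 and 4.68 in UMBO mice. This ratio separated the groups although each gene alone overlapped between them. Plvap had 0.371, 0.376 and 0.253 reads per Vwf read in vehicle mice and 0.191 and 0.207 in UMBO mice, below every vehicle mouse. Pecam1 per Vwf read overlapped, with 0.795, 0.873 and 0.735 against 0.797 and 0.835. Of the 45 pairs among the 10 genes, 23 did not overlap between the groups (51.1%), beside 49 of the 190 pairs among the identity genes (25.8%). Most of the 23 pairs include Sele or Selp, the 2 genes with the fewest reads, so the larger share rests mainly on them. Pairs share genes, so these shares are descriptions with no test.

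**Figure D4:**
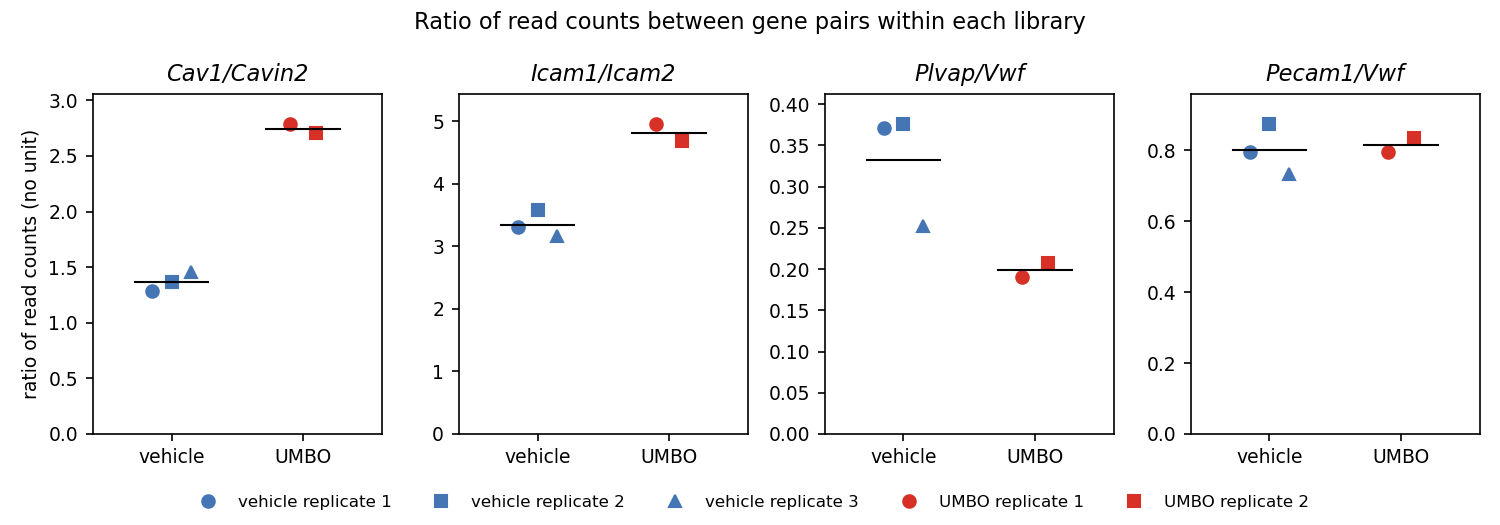
Ratio of read counts (vertical axis, no unit, from 0) for 4 gene pairs in each library, with 1 symbol per mouse and a line at the group mean. Cav1 over Cavin2 is 1.28 to 1.45 in vehicle and 2.71 to 2.78 in UMBO mice, whereas Pecam1 over Vwf overlaps.

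The pathway that induces adhesion genes was described from lists of its ligands, receptors and NF-kB components. Of 8 ligands, 7 were higher and 1 reached an unadjusted p under 0.05, with a median log2 difference of 1.14 that was 0.15 without UMBO replicate 2. The lower one was Vegfa, at 70.9, 66.6 and 83.5 CPM in vehicle mice and 63.3 and 57.1 CPM in UMBO mice. It was the only ligand whose groups did not overlap. Summed over the 8 ligands, the level was 75.53 to 89.45 CPM in vehicle mice and 71.88 to 87.65 CPM in UMBO mice. Il6 stood at 0.0267, 0.237 and 0.13 CPM in vehicle mice and at 0.222 and 2.24 CPM in UMBO mice, so UMBO replicate 1 lay within the vehicle range. These vehicle levels were as low as those of Sele and Selp, where few reads decide each value. All 8 receptors were higher, 4 at an unadjusted p under 0.05, with a median of 0.57 and of 0.49 without UMBO replicate 2. Tnfrsf1a, the main TNF receptor, stood at 11.8, 27.6 and 15.8 CPM in vehicle mice and at 27.9 and 74.1 CPM in UMBO mice. Among 10 NF-kB components 8 were higher and 1 reached that p, Nfkbia, the inhibitor that NF-kB itself induces, with a log2 fold change of 1.097 (SE 0.396, adjusted p = 0.497) and of 0.49 without UMBO replicate 2. The median of the NF-kB components was 0.44, and 0.14 without that library. Of 8 other inducible endothelial genes 7 were higher and 4 reached that p, with a median of 1.92 and of 0.32 without UMBO replicate 2. The lower one, Cx3cl1, stood at 701, 527 and 477 CPM in vehicle mice and at 458 and 247 CPM in UMBO mice. With it, the list summed to 563 to 781 against 420 to 571 CPM. Exons of Ackr1, also in this list, overlap those of Cadm3 on the same strand. Whether these values come from endothelial cells was not tested. None of the genes in these lists passed an adjusted p under 0.05 in edgeR. Angpt2, a ligand that is stored in Weibel-Palade bodies, is counted in both lists, as Kdr and Tek are among receptors and endothelial identity genes.

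Among partners of the 10 genes, 11 of 12 leukocyte counter-receptors were higher and 4 reached an unadjusted p under 0.05, with a median log2 difference of 1.20 and of 0.18 without UMBO replicate 2. Itgam, the alpha chain of the ICAM-1 ligand Mac-1, had a log2 fold change of 1.57 (SE 0.447, adjusted p = 0.497) and of 0.88 without UMBO replicate 2. Of 14 other adhesion and diapedesis genes 8 were higher and 6 lower, with 4 at that p, among them F11r, the junctional adhesion molecule A gene, at 0.92, and Cdh5 at 0.58. The median of these genes was 0.40, and 0.09 without UMBO replicate 2. Cdh5 and Esam are counted both here and among the endothelial identity genes. Of 8 other caveola-related genes tested 7 were higher and 2 reached that p, with a median of 0.28 and of 0.23 without that library. This list counts Mfsd2a, which is not a component of caveolae. It had a log2 fold change of 0.29, with groups that overlapped. Cavin1, the main coat protein of caveolae, stood at 20.01, 35.7 and 26.0 CPM in vehicle mice and at 39.3 and 72.4 CPM in UMBO mice. Ehd2, which holds caveolae at the membrane, had a log2 fold change of 1.096, so the caveola genes with non-overlapping groups did not include Cavin2. Of 10 genes linked to Weibel-Palade bodies 8 were higher and 4 reached that p, among them Edn1 (1.11), which encodes endothelin-1, and Igfbp7 (1.06). Their median was 0.75, and 0.27 without UMBO replicate 2. This list counts Adamts13, which is not a component of the granules and had a log2 fold change of -0.06. The adjusted p in edgeR was 0.497 for each of Itgam, F11r, Cdh5, Cavin1, Ehd2, Edn1 and Igfbp7.

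Markers of other cell types also differed between the groups. All 11 microglia, monocyte and macrophage markers were higher, 6 at an unadjusted p under 0.05, and their summed level was 174 to 365 CPM in vehicle mice and 409 to 907 CPM in UMBO mice. All 7 fibroblast markers were higher, 4 at that p, with sums of 92.1 to 148 against 224 to 280 CPM. Among them Dcn had a log2 fold change of 1.39 and of 1.48 without UMBO replicate 2. All 10 proliferation markers were higher, each at that p, with sums of 38.6 to 115 against 122 to 493 CPM. Of 9 astrocyte markers 6 were higher, 2 at that p, with sums of 3691 to 4761 against 4303 to 5592 CPM. Those 2 were Gfap, the filament gene of reactive astrocytes, at 372.2 ± 151 CPM (SD, n = 3) against 1515 ± 169.1 CPM (SD, n = 2), a log2 fold change of 2.03 and of 1.91 without UMBO replicate 2, and Vim at 2.19 and 1.05. Gfap had an adjusted p of 0.497 in edgeR and of 0.00408 in DESeq2. Of 8 neuron markers 7 were lower, with sums of 5810 to 8887 against 2896 to 6169 CPM. Sums of 10 pericyte and smooth muscle markers were 250 to 326 against 325 to 354 CPM, and 6 of them were higher. Platelet markers, of which 8 of 10 were tested and 6 were higher, summed to 9.57 to 10.5 against 10.6 to 15.9 CPM, with none at that p. Red blood cell markers summed to 71.8 to 165 against 181 to 216 CPM, all 5 higher and none at that p. All 10 choroid plexus markers were lower, none at that p, with sums of 844 to 909 against 512 to 895 CPM. Without UMBO replicate 2 the median log2 fold change was 0.64 in place of 1.68 for microglia, monocyte and macrophage markers, 0.87 in place of 0.91 for fibroblast markers, 0.86 in place of 2.13 for proliferation markers and 0.31 in place of 0.28 for astrocyte markers. It was -0.19 in place of -0.52 for neuron markers, 0.07 in place of 0.12 for pericyte and smooth muscle markers and 0.13 in place of 0.54 for platelet markers. For red blood cell markers it was 0.51 in place of 0.62, and for choroid plexus markers -0.17 in place of -0.65. No marker was at 0 in all libraries. The part of these cell types in the differences of the 10 genes was not tested.

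**Figure D5:**
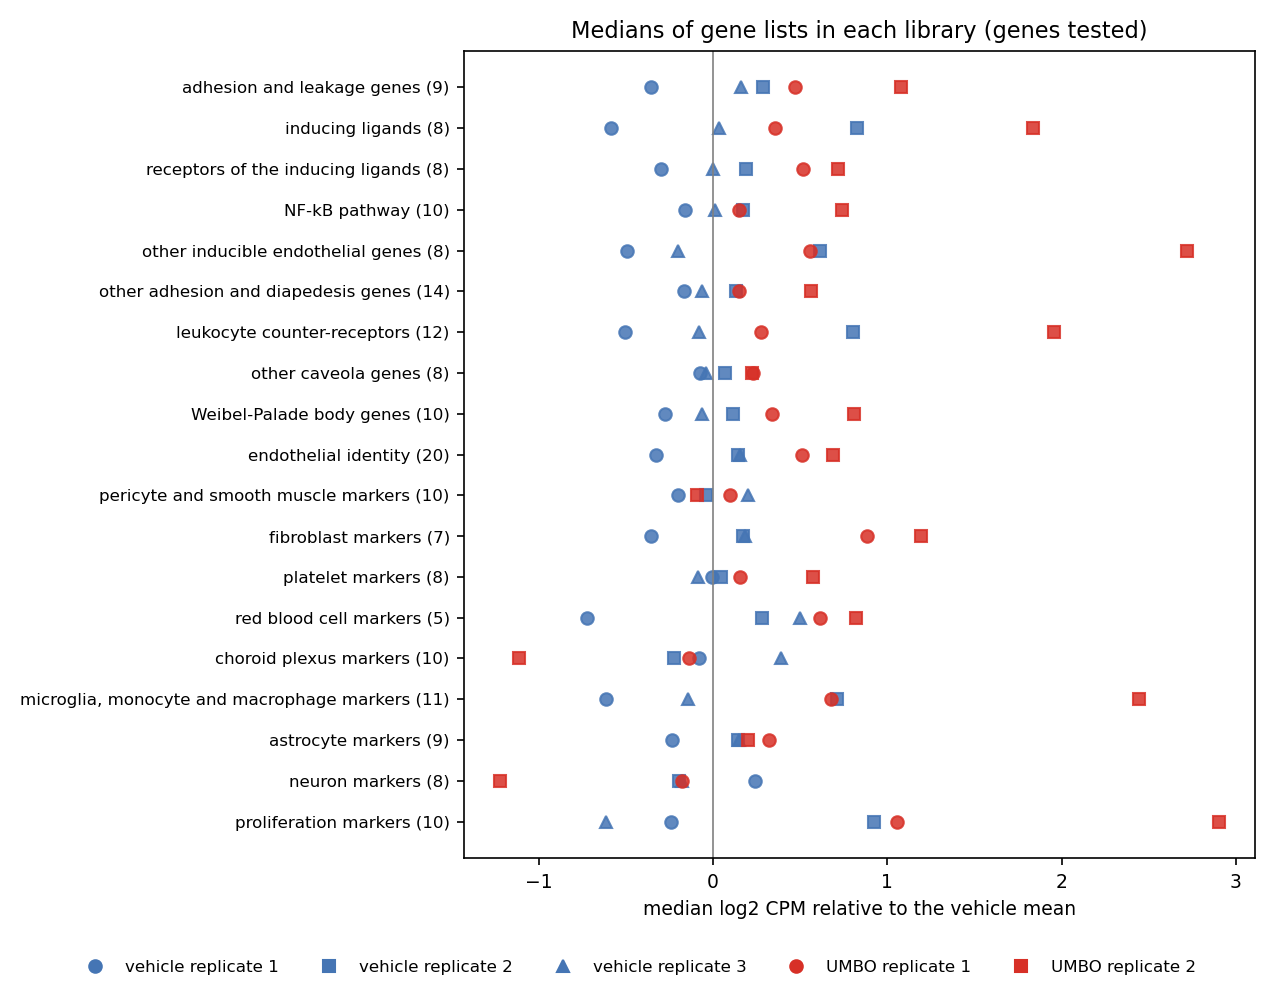
Median log2 level relative to the vehicle mean (horizontal axis, log2 units) over the tested genes of each list, with 1 symbol per library. For most lists UMBO replicate 2 (red square) lies farthest from 0, and the endothelial identity genes, with summed levels of 431 and 439 CPM in the UMBO mice, are among those where both UMBO libraries lie close together.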

How the data were processed

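Total RNA of right hemispheres was sequenced in 3 vehicle and 2 UMBO mice, grouped by the deposited labels. The authors mapped reads to GRCm38 with STAR 2.7.2a and deposited raw counts per gene, not normalized, with 1 table per library. The annotation release and the strand setting of the counting are not given in the sources used here. Symbols were matched for 55480 of the 55573 genes, and the others took at most 0.00173% of a library's counts.

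The 10 genes and all lists were chosen with earlier results of these data known. Counts were scaled by TMM and filtered with filterByExpr, and 23592 genes were tested with edgeR 4.0.16 in R 4.3.3 (quasi-likelihood test, Benjamini-Hochberg adjustment over all genes, threshold 0.05). The common dispersion was 0.1181, and log2 CPM used a prior count of 2. DESeq2 1.42.0, the tool of the authors, was an alternative, besides other scalings, other filters, the replicate number as a block and each library left out. Counts of non-overlapping genes with a library left out, and the Sele ratio and identity-relative values without UMBO replicate 2, were added after the data had been seen. Fits were tested on simulated data. Besides the 10 genes, the text names from the 2 genes of smallest p in each list, and 6 defining markers. Vegfa, Cx3cl1, Ackr1, Mfsd2a, Adamts13, Flt1 and Ptprb were named after the data had been seen. Among the 10 genes, total counts of 59736771 or more keep counting error small except for Sele and Selp, so the spread between mice sets the precision of the others. Il6, at 0.0267 to 0.237 CPM in vehicle mice, was as rare as Sele and Selp.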

Additional observations from a re-analysis of the deposited data

How the results depend on the processing

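Under other scalings and filters no member passed an adjusted p under 0.05. DESeq2 called 40 genes at that threshold, none a member. Genes at an unadjusted p under 0.05 numbered 2954 higher and 1146 lower without the filter, and 1970 and 768 with DESeq2. With a library left out, the ranges were 0 to 4543 genes called, 194 to 5310 higher and 102 to 4855 lower at an unadjusted p under 0.05, 1 to 7 members at that p, 5 to 10 members not overlapping, and a median log2 fold change of 0.33 to 1.06. The upper ends came without UMBO replicate 1. In the UMBO mouse left there, 42.2% of all tested genes lay above every vehicle library and 41.6% below, so most genes did not overlap either. The share of all genes that did not overlap was not computed with other libraries left out. The lowest counts of genes, 194 and 102, came without vehicle replicate 1, and the lowest count of members at that p and the lowest median came without UMBO replicate 2. Without vehicle replicate 3, 217 genes were higher and 215 lower. Cavin2 ranged from -0.27 to 0.066, including 0.0044 without vehicle replicate 3, and was 0.025 with library size only. Icam2 ranged from -0.21 to 1.55 and Plvap from -0.24 to 0.36.

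The labels number the mice but do not say that equal numbers share anything. Deviations of same-numbered mice from their group means correlated at 0.453 and 0.76 over genes, in 2 pairs. With 2 UMBO mice the deviation of one is the mirror image of the other, so these values are not independent. Pairs with unequal numbers were not compared, so the correlations cannot show whether equal numbers mark a pairing. With the replicate block, 2337 genes passed the adjusted threshold, and 3396 were higher and 2738 lower at an unadjusted p under 0.05. Of the members, 7 reached that p, and Selp, Icam1, Pecam1, Cav1 and Vwf passed the adjusted threshold. Vehicle replicate 3 has no UMBO partner, so this fit compares the groups within 2 pairs. Almost nothing is left to estimate the spread between mice, so these counts do not replace those of the fit without the block.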
